A study of Mus musculus with 6 samples.

Results

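Matrix metalloproteinases (MMPs) are zinc-dependent enzymes that cut collagens, laminins, proteoglycans and other matrix and cell-surface proteins, and the tissue inhibitors of metalloproteinases (TIMPs) bind and block them. Most MMPs are secreted as inactive proenzymes that other proteases cut open. Membrane-type MMPs sit on the cell surface instead, and Mmp14, with Timp2 bridging the pair, is known for activating pro-Mmp2. Around lymphatic vessels such enzymes are known for reshaping the matrix in which endothelium and muscle lie. The genes described here are the 9 of this system that the dataset's gene list was searched for by symbol, 9 of 31017 distinct symbols: the gelatinases Mmp2 and Mmp9, the stromelysin Mmp3, the membrane-type Mmp14, the secreted Mmp19, and the inhibitors Timp1, Timp2, Timp3 and Timp4. All 9 were found in the files.

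The study profiled single cells of dermal collecting lymphatic vessels, with adhering surrounding tissue, from C57BL/6 mice, dissected along the course that joins the inguinal to the axillary node. There were 3 ages with 2 libraries each: 6 weeks (young), 12 months (middle-aged) and 18 months (aged), 1 library labelled male and 1 labelled female at each age. The labels name no engineered allele, Evans Blue was injected into the inguinal node of all, and the vessels were digested with collagenase I, elastase, dispase and DNase I before droplet capture. The aged mice came from the National Institute on Aging and no such source is given for the other ages, so age and supplier cannot be told apart. The number of mice per library is not given, so p-values measure only the spread between these libraries.

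The genes lie apart in the mouse genome (GRCm38, GENCODE M21 annotation). Mmp2 (ENSMUSG00000031740) lies on the plus strand at chr8:92827291-92853420, Mmp3 (ENSMUSG00000043613) at chr9:7445822-7455975, plus strand, and Mmp9 (ENSMUSG00000017737) at chr2:164940780-164955850, plus strand. Mmp14 (ENSMUSG00000000957) is at chr14:54431612-54445364 and Mmp19 (ENSMUSG00000025355) at chr10:128790910-128800824, both on the plus strand. Timp1 (ENSMUSG00000001131) is X-linked at chrX:20870166-20874735, plus strand, and Timp2 (ENSMUSG00000017466) is at chr11:118301069-118355740, minus strand. Timp3 (ENSMUSG00000020044) is at chr10:86300372-86349506, plus strand, and Timp4 (ENSMUSG00000030317) at chr6:115241892-115252205, minus strand. Timp1, Timp3 and Timp4 lie inside the synapsin genes Syn1, Syn3 and Syn2, which run on the opposite strand, and Mmp19 overlaps Tmem198b on the opposite strand. Timp2 overlaps Cep295nl on the same strand, and Cep295nl held 280 UMIs over all cells beside 166333 for Timp2. The strand setting of the counting is not given in the sources used here; over all cells Syn1 held 139 UMIs beside 3052 for Timp1, Syn3 2502 beside 62955 for Timp3, Syn2 544 beside 3118 for Timp4, and Tmem198b 957 beside 5757 for Mmp19.

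RefSeq promoters of GRCm38.p6 were matched for 6 of the 9 genes, as the 250 bases before the start. They are shown for 2 enzymes highest in fibroblasts, Mmp3 and Mmp14, and 2 inhibitors highest in blood endothelium, Timp3 and Timp4. Capitals mark exact matches, on either strand, to any of 3 motifs. TGANTCA is the core bound by AP-1 factors. TATAAA is the TATA box that places transcription starts. GGGCGG is the GC box bound by Sp-family factors, and a match on the reverse strand is marked likewise. No motif matched in Timp4 (minus strand, chr6:115252206-115252455). Mmp3 is chr9:7445572-7445821, Mmp14 chr14:54431348-54431597 and Timp3 chr10:86300162-86300411, all plus strand.
Mmp3: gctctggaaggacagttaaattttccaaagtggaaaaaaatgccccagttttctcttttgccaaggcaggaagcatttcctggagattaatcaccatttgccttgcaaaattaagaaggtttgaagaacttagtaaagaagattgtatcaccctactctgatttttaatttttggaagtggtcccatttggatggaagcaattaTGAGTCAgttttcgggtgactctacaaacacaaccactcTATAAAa
Mmp14: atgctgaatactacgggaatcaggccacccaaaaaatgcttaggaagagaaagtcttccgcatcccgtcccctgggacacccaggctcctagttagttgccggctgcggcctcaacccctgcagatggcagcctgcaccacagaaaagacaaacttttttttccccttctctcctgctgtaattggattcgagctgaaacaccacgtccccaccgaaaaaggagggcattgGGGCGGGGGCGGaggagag
Timp3: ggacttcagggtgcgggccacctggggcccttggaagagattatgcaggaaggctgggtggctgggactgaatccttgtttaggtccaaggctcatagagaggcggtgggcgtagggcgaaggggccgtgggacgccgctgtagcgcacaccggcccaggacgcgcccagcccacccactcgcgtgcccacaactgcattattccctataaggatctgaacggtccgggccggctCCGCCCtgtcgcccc
Timp4: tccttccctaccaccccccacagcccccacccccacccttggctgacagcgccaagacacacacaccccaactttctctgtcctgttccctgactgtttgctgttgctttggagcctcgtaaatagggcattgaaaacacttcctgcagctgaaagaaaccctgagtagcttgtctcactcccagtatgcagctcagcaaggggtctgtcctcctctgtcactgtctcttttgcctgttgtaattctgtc
Of these 6 promoters, the AP-1 core was in Mmp3 alone, 46 bases before its start, against 6.749% of 32851 promoters. The TATA box was also in Mmp3 alone, 7 bases before the start, against 12.368% of promoters. GC boxes were in Mmp14, Timp1, Timp2 and Timp3, against 32.742% of promoters. Mmp3 had the lowest share of G and C of the 4 shown at 37.6%, beside 53.6% for Timp4, 55.2% for Mmp14 and 65.6% for Timp3. A match describes letters in this window and shows nothing of binding.

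Barcodes with at least 500 genes and at most 10% mitochondrial UMIs gave 24488 barcodes, of which 590 were removed as doublets (2.41%). The remaining 23898 cells fell into 28 clusters, and 27 of these were named as 14 classes from fixed markers. UMIs per library ran from 9616652 to 28921825 and cells from 998 to 7939, with median depths of 2507 to 7483.5 UMIs a cell. The library labelled middle-aged female stands apart with the fewest cells and the deepest. Xist and Y-linked genes went against the sex labels of both middle-aged libraries, which had 1405.5 CPM of Xist in the library labelled male and 0.255 CPM in the one labelled female. They are therefore called by their labels throughout. Of 24425 distinct kept barcodes, 63 occurred in more than 1 library. Levels below are CPM, the depth-scaled share of a class's UMIs in a library, for sums of at least 20 cells. A value marked free-RNA limit is the largest number of UMIs of a gene that stray RNA could have given the class, set from near-empty droplets and from genes of other cell types. Counts of a 3′ assay count 1 end per transcript, so CPM can be set side by side between genes, within differences of capture.

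**Figure D1:**
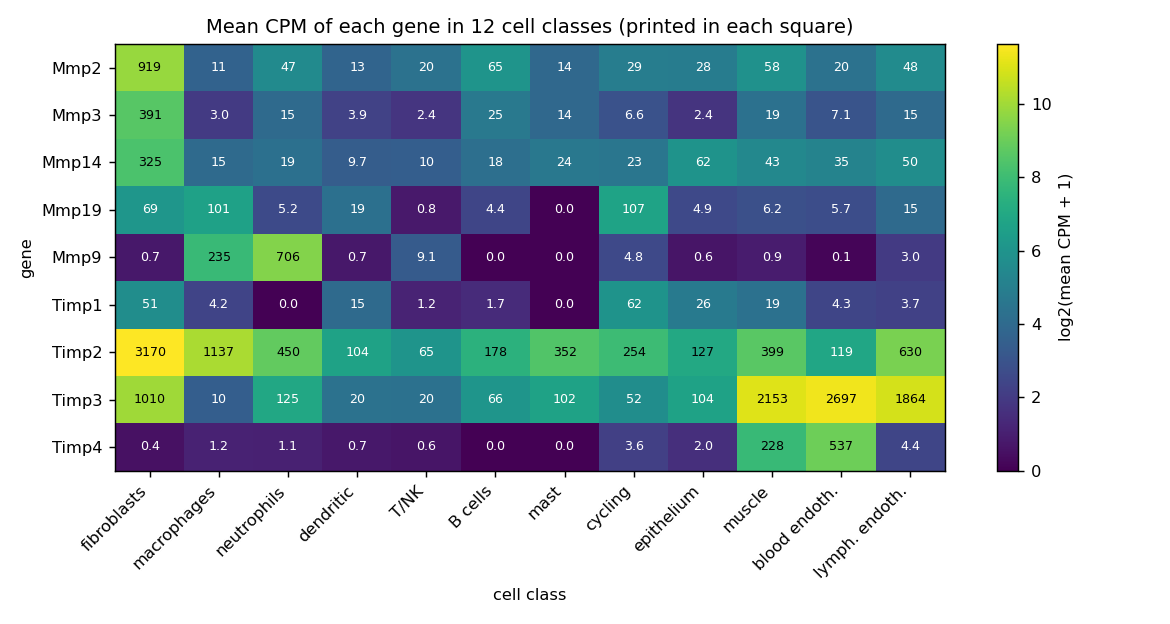
Mean CPM of the 9 genes (rows) in the 12 cell classes with at least 3 sums (columns), over the libraries with at least 20 cells; colour is log2(mean CPM + 1) and each square prints the mean. Mmp2, Mmp3, Mmp14 and Timp2 have their highest square in fibroblasts, Timp3 and Timp4 in blood endothelium and Mmp9 in neutrophils.

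Fibroblasts, the cells that make and turn over collagen, carried the most MMP and TIMP transcripts of the classes. Mmp2, Mmp3, Mmp14 and Timp2 were all highest there. Mmp2 stood at 919 ± 209 CPM (SD, n = 6), with values of 934 in young male, 1332 in young female, 814 in the library labelled middle-aged male, 850 in the one labelled middle-aged female, 804 in aged male and 780 in aged female. Young female was the only library above 1000. In every other class the Mmp2 UMIs lay at or below the free-RNA limit (B cells, the next class, had 118 UMIs beside a limit of 206). The difference of fibroblasts from B cells was 3.76 ± 0.50 on the log2 scale (SE; adjusted p = 1.486e-08, edgeR's quasi-likelihood test with library as a block). Of all genes tested for that pair, 47.6% were called. With the 1 pair of neighbours tested for each of the 9 genes, the highest class differed from the next in 6: Mmp2, Mmp3, Mmp9, Mmp14, Timp2 and Timp4. Over all genes tested, 26.6% to 62.7% were called in these pairs. Each pair was picked by the order of means in the same values that were then tested.

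Mmp3, which cuts proteoglycans and activates other proenzymes, was at its highest in fibroblasts, at 391 ± 124 CPM (n = 6). Its values were 323, 581, 470, 294, 252 and 429 in the library order given for Mmp2. Young female was highest and aged male lowest, and the ages overlapped. B cells came next at 24.8 CPM with 50 UMIs beside a limit of 70.1, and the difference from fibroblasts was 3.90 ± 0.55 log2 (adjusted p = 5.556e-08, edgeR; 47.6% of genes called). Mmp14 was at 325 ± 135 CPM in fibroblasts, with 193, 523, 255, 245, 269 and 465 in the same order; the young female and aged female libraries were the high ones. Mmp14 was also detected above the free-RNA limit elsewhere: 62.0 ± 37.2 CPM (n = 3) in epithelium, 50.3 ± 21.9 (n = 5) in lymphatic endothelium, 42.6 ± 27.8 (n = 5) in smooth muscle and 35.5 ± 12.4 (n = 6) in blood endothelium. Fibroblasts exceeded epithelium by 2.85 ± 0.47 log2 (adjusted p = 1.1417e-06, edgeR; 47.5% of genes called). The difference of epithelium from lymphatic endothelium did not pass the test (0.14 ± 0.55 log2, adjusted p = 0.887, edgeR; 37.3% of genes called), nor did that of lymphatic endothelium from smooth muscle (0.03 ± 0.63, adjusted p = 1.00, edgeR; 29.6%) or of smooth muscle from blood endothelium (0.46 ± 0.59, adjusted p = 0.637, edgeR; 26.6%).

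Per cell, thinned to 1000 UMIs, Mmp2 had a UMI in 56.6% of fibroblasts and 1.02% of macrophages, Mmp3 in 18.3% and 0.478%, and Mmp14 in 26.7% and 0.728%. Before thinning the fibroblast shares were 90.1%, 33.2% and 66.5%. The median cell had 3600 UMIs in fibroblasts and 2147 in macrophages. Timp2 had a UMI in 91.2% of thinned fibroblasts and in 61.4% of thinned macrophages.

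Of the other 18 MMP genes listed, 17 are in the files and 7 reached 10 CPM in a class. Mmp8, the neutrophil collagenase, was at 937 ± 627 CPM in neutrophils (n = 3) and Mmp23 at 129 ± 27.8 CPM in fibroblasts (n = 6). Mmp15, a membrane-type enzyme, was highest in epithelium at 57.7 ± 16.0 CPM, Mmp17 in smooth muscle at 22.3 ± 14.4, Mmp25 in dendritic cells at 20.8 ± 16.1, Mmp27 in fibroblasts at 19.3 ± 8.46 and Mmp12 in macrophages at 12.3 ± 21.3. Reck, a membrane-anchored MMP inhibitor, was highest in fibroblasts at 63.4 ± 13.5 CPM, and so was Lrp1, an endocytic receptor that clears MMP and TIMP complexes, at 563 ± 70.2.

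Within fibroblasts the genes did not spread evenly over the 8 clusters. The 9 genes and the listed pathway genes were left out of the clustering, and the following is a description without a test. The cluster means of Mmp2 ran from 717 to 965 CPM over the 7 clusters with at least 2 libraries, a 1.35-fold range; within a library the clusters ran further, from 661 to 1428 CPM in young female and from 712 to 1202 in aged male. The means of Mmp3 ranged from 65.0 to 1060 CPM, 16.3-fold. It was at 1060 ± 336 CPM (n = 4) in cluster 8, led by Scg3, Cdh11, Lum and Postn, and at 1008 ± 308 (n = 5) in cluster 6, led by Agt, C7, Inmt and Gdf10. It was at 65.0 ± 39.1 (n = 3) in cluster 11, led by Dmkn, Krtdap, Sbsn and Pi16. In each of the 6 libraries the highest Mmp3 was in cluster 6 or 8. Mmp19 and Timp1 shared this, with the highest cluster 6 or 8 in 6 of 6 libraries; Mmp19 ranged 7.37-fold and Timp1 7.22-fold over the clusters.

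Timp2 ran the other way. It was at 4072 ± 331 CPM (n = 3) in cluster 11, 3650 ± 456 (n = 4) in cluster 10 and 3632 ± 281 (n = 4) in cluster 15, beside 2204 ± 393 (n = 5) in cluster 6 and 2028 ± 193 (n = 4) in cluster 8. The lowest Timp2 was in cluster 6, 8 or 9 in 6 of 6 libraries. Timp3 ranged from 566 CPM in cluster 9 to 1547 ± 854 in cluster 6, with a spread between libraries in cluster 6 of 746 to 2848. Clusters were unequal between libraries: 98.7% of cluster 5 and 93.4% of cluster 9 came from young male, 76.8% of cluster 11 and 73.3% of cluster 16 from aged male. Clusters 8, 10 and 15 came mostly from young female, the library labelled middle-aged male and aged female, the same 3 libraries that carried Xist; the part of this in the cluster levels was not tested.

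**Figure D2:**
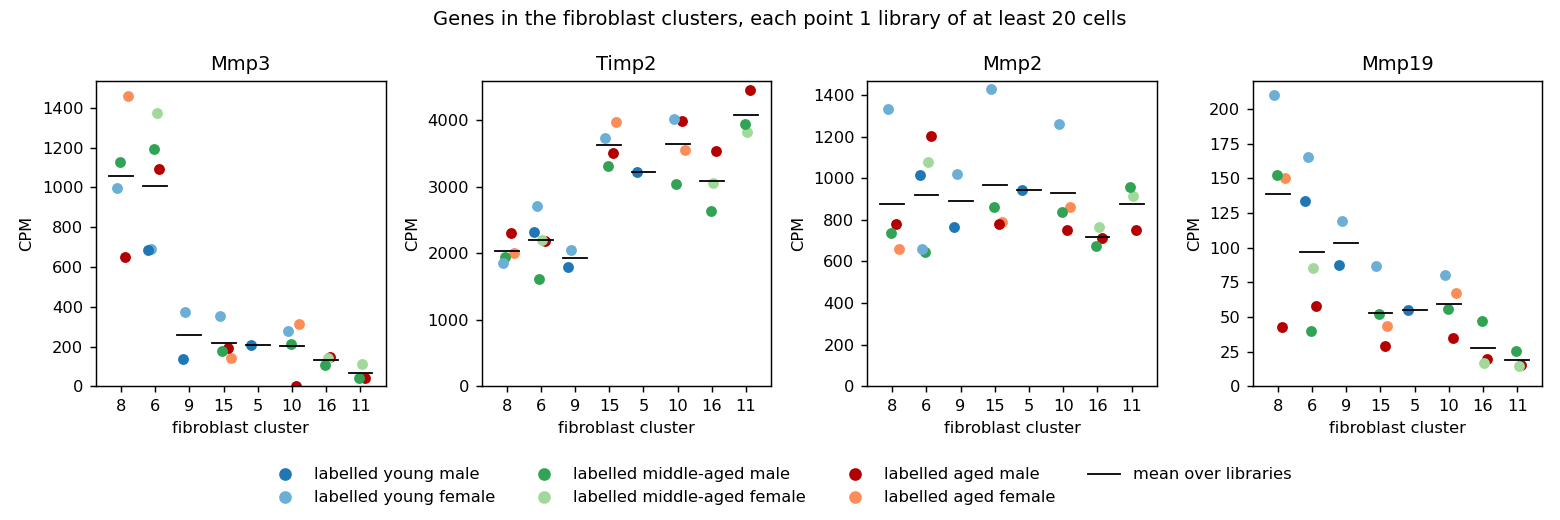
CPM of Mmp3, Timp2, Mmp2 and Mmp19 in the 8 fibroblast clusters (x axis, ordered by mean Mmp3), 1 point per library with at least 20 cells in the cluster, coloured by library; black lines are means. Mmp3 falls from 1060 CPM in cluster 8 to 65.0 in cluster 11 while Timp2 is highest in cluster 11 at 4072, and the Mmp2 means of clusters with at least 2 libraries lie between 717 and 965, with single libraries from 644 to 1428.

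Myeloid cells carried the other gelatinase. Mmp9, stored in neutrophil granules and induced in macrophages, was at 706 ± 320 CPM in neutrophils (n = 3; 494 in the library labelled middle-aged female, 549 in aged male, 1074 in aged female) and at 235 ± 135 in macrophages (n = 6). The next class, T and NK cells, was at 9.07 CPM. Neutrophils exceeded macrophages by 1.42 ± 0.38 log2 (adjusted p = 0.0023672, edgeR; 40.1% of genes called) and macrophages exceeded T and NK cells by 4.78 ± 0.44 (adjusted p = 8.3559e-13, edgeR; 53.4% called). Mmp9 had a UMI in 42.9% of thinned neutrophils, 18.8% of thinned macrophages and 0.0502% of thinned fibroblasts; before thinning the shares were 55.5%, 40.8% and 0.366%, with median depths of 1848, 2147 and 3600 UMIs.

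Macrophage Mmp9 lay in 2 of 3 macrophage clusters. It was at 240 ± 134 CPM (n = 6) in cluster 3, led by Lyve1, Folr2, Ccl8 and Il10, and at 249 ± 139 (n = 5) in cluster 4, led by Cd209f, Folr2 and Lyve1. It was at 2.96 ± 3.89 (n = 5) in cluster 1, led by Trem2 and Ly6c2, of which 66.1% of cells came from young male. Monocytes formed no class of their own. In cluster 1 the monocyte list came close behind the macrophage list, with mean log2 levels of 4.06 and 4.51 above the median cluster. The part of monocytes in the cluster differences was not tested. Cluster 1 was the lowest of the 3 in 5 of 5 libraries that held all of them. Timp2 followed the same clusters, at 1213 ± 203 and 1399 ± 145 beside 257 ± 138 CPM in cluster 1. Mmp19 divided otherwise, with 134 ± 49.5 in cluster 1 and 137 ± 77.8 in cluster 3 but 30.2 ± 17.0 in cluster 4.

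**Figure D3:**
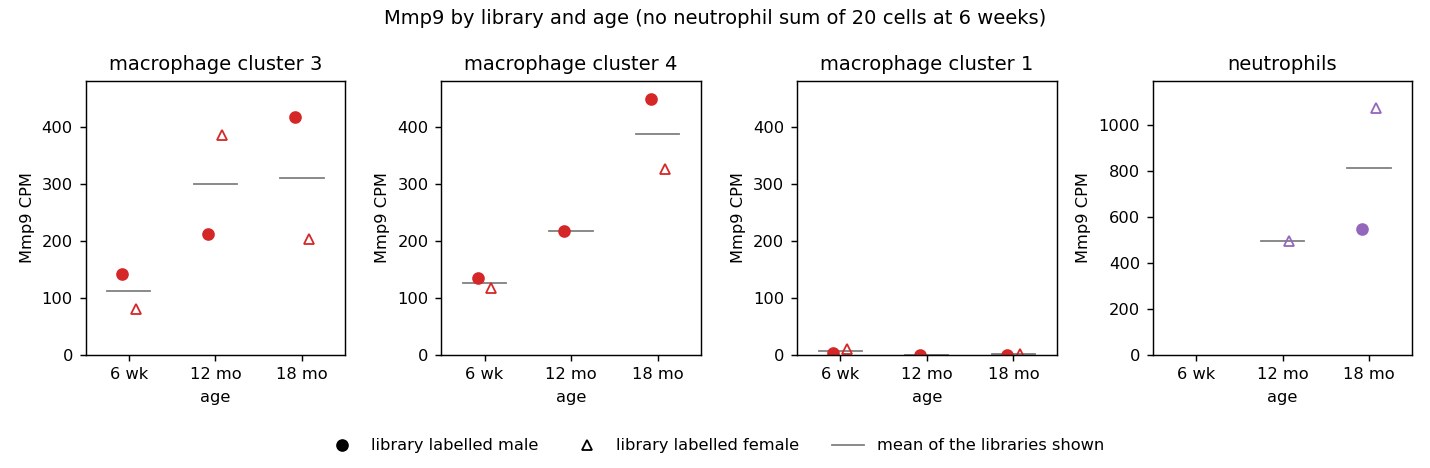
Mmp9 CPM against age in macrophage clusters 3, 4 and 1 and in neutrophils; each point is 1 library of at least 20 cells (filled circle labelled male, open triangle labelled female) and grey lines are means. Clusters 3 and 4 run from 79.7 to 448 CPM and cluster 1 stays under 10; the neutrophil panel has its own axis.

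Mmp19, a secreted enzyme that cuts basement-membrane proteins, was shared, among the named classes, between macrophages (101 ± 70.0 CPM, n = 6; 1133 UMIs beside a limit of 24.8), cycling cells (107 ± 52.4, n = 3) and fibroblasts (68.7 ± 40.6, n = 6). The 791 unnamed cells, whose highest list was that of macrophage markers, are outside these classes and stood at 335.1 CPM. The cycling class joins cluster 12, in which macrophage markers came next after the cycling list, and cluster 7, in which skeletal-myogenic markers came next and 84.5% of cells were from 1 library. The macrophage values of Mmp19 were 105, 81.5, 67.9, 239, 54.0 and 60.0, high in the library labelled middle-aged female, which had 93 macrophages. Neither difference between neighbours among these 3 classes passed the test (cycling cells less macrophages −0.55 ± 0.50 log2, adjusted p = 0.398; macrophages less fibroblasts 0.52 ± 0.34, adjusted p = 0.188; edgeR, with 41.6% and 62.7% of genes called). Fibroblasts exceeded dendritic cells by 1.70 ± 0.50 (adjusted p = 0.0031695, edgeR; 55.4% called).

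Among the inhibitors, Timp2 was the most abundant of the 9 genes and was found beyond fibroblasts. It was at 3170 ± 365 CPM in fibroblasts (n = 6), 1137 ± 205 in macrophages (n = 6), 630 ± 245 in lymphatic endothelium (n = 5) and 450 ± 362 in neutrophils (n = 3; 227 UMIs beside a limit of 179). Fibroblasts exceeded macrophages by 1.61 ± 0.36 log2 (adjusted p = 1.1643e-04, edgeR; 62.7% of genes called), which fell to 1.46 with adjusted p = 0.079 once free RNA was subtracted. Macrophages exceeded lymphatic endothelium by 1.20 ± 0.39 (adjusted p = 0.0085468, edgeR; 51.6% called). In blood endothelium 522 Timp2 UMIs lay beside a limit of 508 and in smooth muscle 297 beside 290.

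Timp3 stays bound to the matrix. Among classes with at least 3 sums its highest means were in blood endothelium, smooth muscle and lymphatic endothelium, followed by fibroblasts. It was at 2697 ± 491 CPM in blood endothelium (n = 6), with 2260, 3369, 3125, 2291, 2868 and 2268 in the library order above, all higher than the fibroblast value of the same library. Smooth muscle had 2153 ± 637 (n = 5), with 1609, 2607, 2894, 1402 and 2251 in the libraries without aged female. Lymphatic endothelium had 1864 ± 164 (n = 5), with 1624, 2001, 1969, 1965 and 1761 in the same 5. Fibroblasts had 1010 ± 258 (n = 6). None of the differences between these neighbours passed the test: blood endothelium less smooth muscle 0.60 ± 0.39 log2 (adjusted p = 0.296), smooth muscle less lymphatic endothelium 0.05 ± 0.41 (adjusted p = 0.990) and lymphatic endothelium less fibroblasts 0.48 ± 0.39 (adjusted p = 0.355; edgeR, with 26.6%, 29.6% and 40.9% of genes called). Blood endothelium exceeded fibroblasts by 1.12 ± 0.37 (adjusted p = 0.0094352, edgeR; 49.3% called). Macrophages were at 10.1 ± 2.55 CPM, near the free-RNA limit (139 UMIs beside 131).

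Timp4, the inhibitor with the narrowest known distribution, was highest in blood endothelium and then in smooth muscle. Pericytes formed no class of their own. Their marker list was highest in smooth muscle (mean sum 2462 CPM) and next in blood endothelium (1163 CPM). The part of pericytes in the Timp3 and Timp4 levels was not tested. Blood endothelium had 537 ± 119 CPM (n = 6; 710, 456, 491, 468, 666 and 430 in the library order above) and smooth muscle 228 ± 83.1 (n = 5; 133, 216, 210, 219 and 363). In the 5 libraries with both, blood endothelium was higher in each. The difference was 1.48 ± 0.30 log2 (adjusted p = 1.1591e-04, edgeR; 26.6% of genes called). Lymphatic endothelium, at 4.42 ± 6.77 CPM (n = 5), was lower than smooth muscle by 5.83 ± 0.53 log2 (adjusted p = 3.7608e-12, edgeR; 29.6% called).

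**Figure D4:**
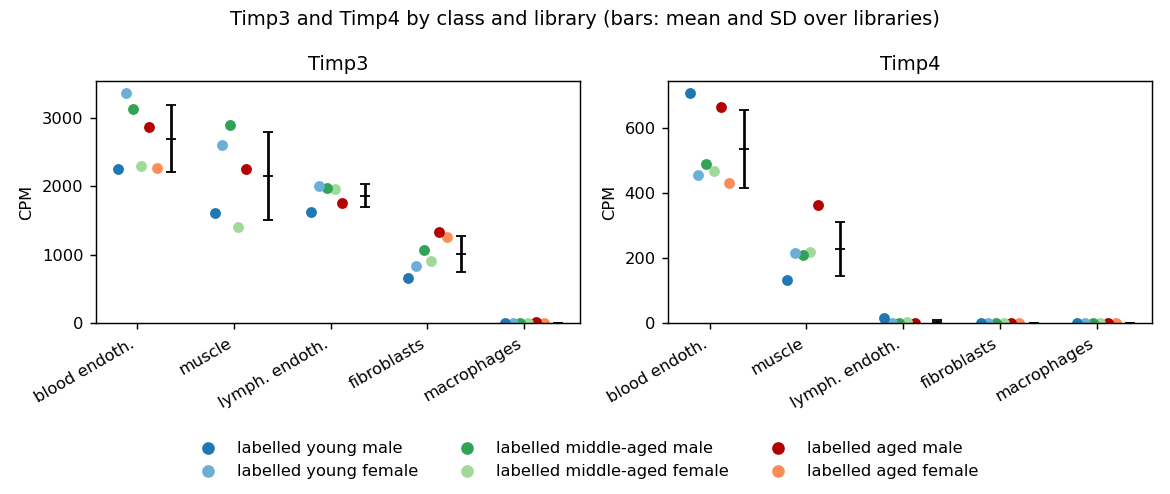
CPM of Timp3 and Timp4 in 5 cell classes, 1 point per library with at least 20 cells, coloured by library, with the mean and SD over libraries at the right of each class. Timp3 is high in blood endothelium (2697), smooth muscle (2153) and lymphatic endothelium (1864); Timp4 is high in blood endothelium (537) and smooth muscle (228) and at 4.42 in lymphatic endothelium.

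Timp1, the inducible inhibitor, was low. It was at 50.8 ± 32.2 CPM in fibroblasts (n = 6) and 61.6 ± 95.0 in cycling cells (n = 3), where 171 CPM in young male stood beside 7.36 in young female and 6.14 in the library labelled middle-aged male; the make-up of that class, given for Mmp19, differs between libraries. Neither the difference of cycling cells from fibroblasts passed the test (0.09 ± 0.58 log2, adjusted p = 0.928, edgeR; 43.5% of genes called) nor that of fibroblasts from epithelium (0.80 ± 0.54, adjusted p = 0.223, edgeR; 47.5%).

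Genes whose class pattern was most like each member's are named as a description, from Pearson's r of log2(mean CPM + 1) over 12 classes that share libraries and depths, among 10158 genes. Mmp2 was most like Dcn (r = 0.964), Olfml1 (0.961) and Bmp8a (0.940), and Mmp3 most like Clec3b (0.974), Dpep1 (0.972) and Dpt (0.967). Mmp9 was nearest Clec5a (0.936), Slfn1 (0.928) and Chil3 (0.921), and Mmp14 nearest Ghr (0.917), Dsel (0.901) and Zfp651 (0.899). For Mmp19 they were Sestd1 (0.901), Tmem106a (0.886) and Ptgr1 (0.871), and for Timp1 Chchd6 (0.929), Uqcc2 (0.909) and Glrx3 (0.909). Timp2 had Ctsk (0.921), Ang (0.880) and Egfr (0.856), Timp3 Adamts1 (0.977), Tns2 (0.955) and Dlc1 (0.955), and Timp4 Tmem182 (0.968), Map7d2 (0.955) and Kcna5 (0.955). Among the members, Mmp2 with Mmp3 had r = 0.918 and Timp3 with Timp4 r = 0.683.

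With age no member passed the test in fibroblasts or macrophages. On simulated data this test called 1 of 100 genes changed 2-fold in fibroblasts and 13 of 100 in macrophages. The lack of calls therefore does not show that levels stayed the same. In fibroblasts 7 members passed the filter on low counts (Mmp9 and Timp4 did not) and 0 of them were called between aged and young, where 0% of 11947 genes were called and 670 had an unadjusted p under 0.05 (edgeR); DESeq2 called 63 genes and 0 members. At an unadjusted p under 0.05 were 2 members, Timp1 and Timp3.  Timp1 had 46.0, 104, 37.1, 72.8, 20.3 and 24.1 CPM in the library order above, both aged libraries under all others. The difference was −1.80 ± 0.46 log2 (adjusted p = 0.66, edgeR); it was 1.4e-05 as adjusted p without the filter on low counts, and −2.12 ± 0.39 log2 without cluster 5. Timp3 had 656, 838, 1065, 911, 1331 and 1261 CPM, both aged libraries above all others (0.73 ± 0.26 log2, adjusted p = 0.82, edgeR). How many of all genes ordered the libraries by age in such a way was not counted, here or for the genes and classes below. With 2 libraries an age, such an order alone does not show an age difference.

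For Timp2 in fibroblasts the values were 2780, 3067, 2796, 3194, 3656 and 3524 CPM, with both aged libraries the highest; under the TMM scaling of the test aged female was at 3132 and the library labelled middle-aged female at 3599, so aged female was no longer above all others. The fitted difference was 0.22 ± 0.27 log2 (adjusted p = 0.93, edgeR). Mmp2 was −0.58 ± 0.27 and Mmp19 −1.31 ± 0.60 log2 (adjusted p = 0.875 for both, edgeR), with both aged libraries under both young ones. Mmp19 had 80.4, 132, 81.8, 24.6, 24.4 and 68.5 CPM. Mmp3 was −0.48 ± 0.36 and Mmp14 −0.02 ± 0.43, with the ages overlapping in both. Between middle-aged and young 0 of the 7 were called (0% of genes; 1050 genes at an unadjusted p under 0.05, edgeR, and 67 called by DESeq2), and between aged and middle-aged likewise 0 (0%; 445 genes under 0.05, 7 called by DESeq2).

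**Figure D5:**
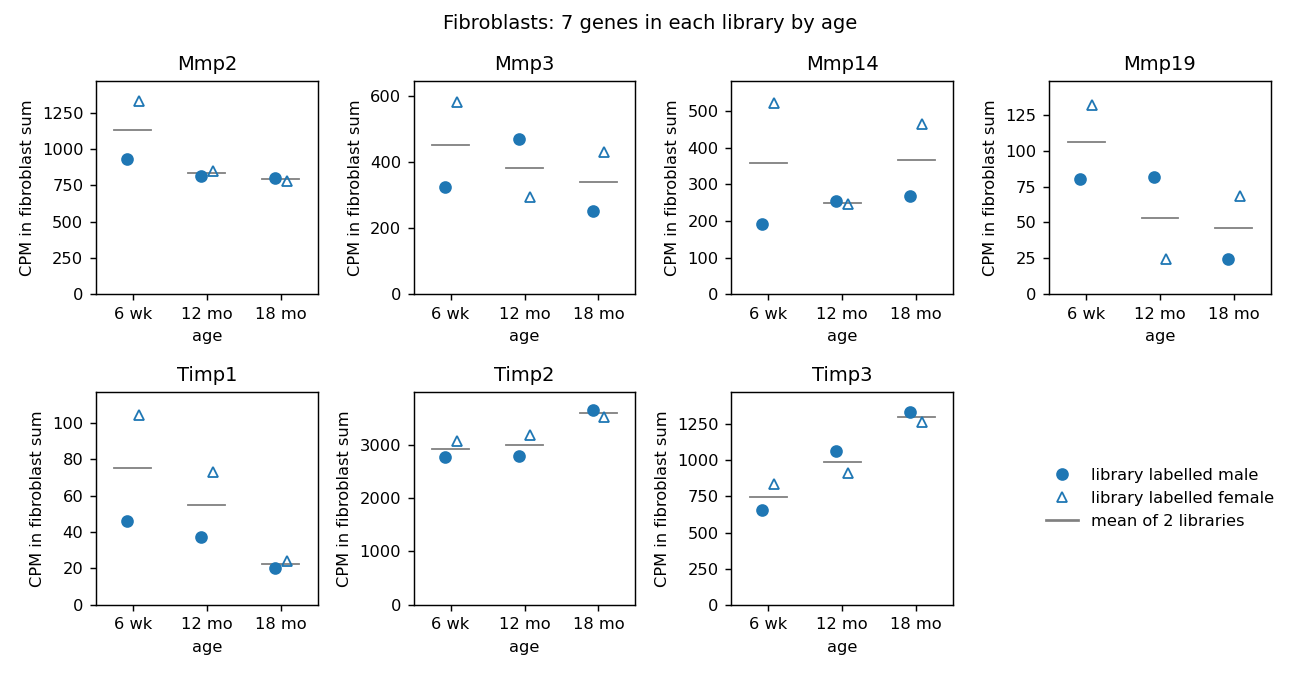
CPM of 7 genes in the fibroblast sums of the 6 libraries against age (6 weeks, 12 months, 18 months); filled circles are libraries labelled male, open triangles labelled female and grey lines the means of 2. On this scale Timp1 is lowest and Timp3 and Timp2 highest in both aged libraries (Timp2 in aged female is not under TMM scaling), while Mmp3 and Mmp14 overlap between ages.

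In macrophages 8 members passed the filter and 0 were called in each contrast, beside 0% of 9455 genes (edgeR). At an unadjusted p under 0.05 were 2 members between aged and young (Mmp3, Mmp9), 1 between middle-aged and young (Mmp9) and 3 between aged and middle-aged (Mmp3, Mmp14, Mmp19); DESeq2 called 0, 1 (Mmp9) and 1 (Mmp19) of them. Over all genes 349, 1134 and 802 were under 0.05 in these contrasts, and DESeq2 called 5, 146 and 75. Macrophage Mmp3 had 49 UMIs beside a free-RNA limit of 70.8, so stray RNA could account for all of it. Macrophage cluster 4, where Mmp19 was low, held 57.2% and 68.5% of the aged macrophages but 29.3% and 9.68% of the middle-aged ones, and its part in the Mmp19 difference was not tested. Mmp9 was at 101, 101, 200, 372, 420 and 216 CPM in the library order above, with both young libraries under the other 4. The difference of aged from young was 1.70 ± 0.45 log2 (adjusted p = 1.00, edgeR) and of middle-aged from young 1.76 ± 0.45 (adjusted p = 0.315, edgeR); DESeq2 gave adjusted p = 0.0969 and 0.0037 for the pair. Without the filter on low counts both contrasts passed in edgeR (adjusted p = 4.5e-04 and 1.8e-04). Without aged male the aged-young difference was 1.02, and without aged female 2.15. Without cluster 1 it was 1.66 ± 0.39. The neutrophil marker list summed to 55.7 to 251 CPM in macrophages, beside 128970 CPM or more in neutrophils, and 1 or 2 of its 8 genes were at 0. The immediate-early and dissociation list summed to 18944 and 20418 CPM in the young macrophages, 35608 and 34617 in the middle-aged and 29930 and 15802 in the aged; its part in the Mmp9 values was not tested. Timp2 had 1170 and 1449 CPM in the young libraries and 1125 and 1023 in the aged ones (−0.27 ± 0.31 log2, adjusted p = 1.00, edgeR). Mmp14 had 64.3 CPM in aged female beside at most 11.5 in the other 5.

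Neutrophils numbered 8 and 4 in the young libraries, so only aged and middle-aged could be compared, with 1 middle-aged sum, and 0 of 4 members tested were called (0% of 2426 genes; 0 at an unadjusted p under 0.05, edgeR, and 0 by DESeq2). Mmp9 differed by 0.50 ± 0.69 log2 (adjusted p = 1.00, edgeR). In dendritic cells, with 1 middle-aged sum, 0 of 5 members were called in any of the 3 contrasts (0% of 5226 genes for aged against young, 0.0191% for middle-aged against young); Mmp2 was at an unadjusted p under 0.05 in both contrasts with young (edgeR), and DESeq2 called 0. Dendritic Mmp2 had 43 UMIs beside a free-RNA limit of 97.4, with 8.11 and 55.0 CPM in the young libraries and 0 in both aged ones. How many of all genes lay under 0.05 is not given for dendritic cells, blood endothelium or muscle. The members named as under 0.05 in those classes, here and below, therefore cannot be set against a share over all genes. Dendritic Timp2 was at 295 CPM in young male and at 42.6 to 72.1 in the other 4 libraries. The fibroblast markers summed to 4312 CPM in the young male sum and to 15.3 to 252 in the others. The part of fibroblast RNA in these values was not tested.

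In blood endothelium 5 members were tested and 0 called by edgeR or DESeq2, with Mmp2 alone at an unadjusted p under 0.05, between middle-aged and young; 0.0509% of 5891 genes were called between aged and young and 0.0679% between middle-aged and young. Timp3 differed by −0.15 ± 0.29 log2 and Timp4 by −0.14 ± 0.33 (adjusted p = 0.921 and 0.945, edgeR, aged against young). In lymphatic endothelium 3 members were tested and 0 called by edgeR or DESeq2, with Mmp2 and Timp2 at an unadjusted p under 0.05 in both contrasts with young. Over all 3153 genes 7.55% were called between aged and young and 1.90% between middle-aged and young, and 753 and 379 had an unadjusted p under 0.05. The aged group has 1 sum here (aged female had 4 cells), whose spread is assumed to be that of the other ages. Timp3 differed by −0.03 ± 0.34 log2 (adjusted p = 0.968, edgeR). Timp2 had 853 and 934 CPM in the young libraries and 391, 495 and 479 in the others (−0.89 ± 0.37 log2, adjusted p = 0.146, edgeR, aged against young). Fibroblast markers summed to 4264 and 2524 CPM in those young sums and to 112 to 782 in the others; their part was not tested.

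The smooth muscle class was not divided into muscle of lymphatic vessels, muscle of blood vessels and pericytes. Pericyte markers were highest in it (mean sum 2462 CPM). In this class 4 members were tested, and the aged group again has 1 sum (aged female had 3 cells). Between middle-aged and young 2 were called, both lower in middle-aged, beside 3.75% of 2637 genes. Mmp2 had 159 and 71.9 CPM in young and 26.3 and 4.77 in middle-aged (−3.47 ± 0.94 log2, adjusted p = 0.0117, edgeR). Timp2 had 794 and 521 in young and 184 and 162 in middle-aged (−2.02 ± 0.43, adjusted p = 5.1e-04, edgeR). Beside these, the fibroblast markers summed to 15158 and 4135 CPM in the young muscle sums and to 500 and 448 in the middle-aged ones, and 7 of 7 fibroblast markers tested were lower too. Timp2 UMIs in muscle (297) lay near the free-RNA limit of 290, and with that RNA subtracted the Timp2 difference turned to 6.37 log2 (adjusted p = 0.044, edgeR). Without young male neither Mmp2 nor Timp2 was called. DESeq2 gave adjusted p = 0.0619 for Timp2 and none for Mmp2, and cells thinned to 1000 UMIs gave 0.160 for Timp2 (adjusted, edgeR) with Mmp2 under the filter. Between aged and young 0 of 4 were called by edgeR or DESeq2 (1.33% of genes; Mmp2, Timp2 and Timp4 at an unadjusted p under 0.05, edgeR), and 0 between aged and middle-aged (0.531%). Timp3 and Timp4 in muscle differed by 0.01 ± 0.37 and 0.38 ± 0.45 log2 (adjusted p = 0.994 and 0.795, edgeR, middle-aged against young), and by 0.02 ± 0.45 and 1.04 ± 0.52 (adjusted p = 0.992 and 0.601, edgeR, aged against young).

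In lymphatic endothelium, where no member passed, other genes of the system did; as above, aged is 1 sum there, and 7.55% of all genes were called between aged and young (132 higher and 106 lower). Between aged and young, Lcn2, which binds Mmp9, rose by 1.52 ± 0.41 log2 (adjusted p = 0.0229, edgeR). Of 5 ADAM and ADAMTS genes 1 rose and 1 fell, Adamts4 by 1.75 (adjusted p = 0.0242) and Adamts5 by −2.32 (adjusted p = 0.0219). Of 9 cathepsins 0 rose and 3 fell, Ctsh by −2.52, Ctsb by −1.82 and Ctsd by −1.60 log2 (adjusted p = 0.0046, 0.0204 and 0.0264, edgeR). The cathepsin list was highest in macrophages (16389 CPM). In the lymphatic sums the macrophage markers stood at 325 and 366 CPM in young, 469 and 11.1 in middle-aged and 25.6 in aged, and the fibroblast markers at 4264 and 2524 in young and 112 to 782 in the others; their part was not tested. Of 21 immediate-early and dissociation genes 6 rose and 1 fell, among them the heat-shock genes Hspa1b (3.06 log2) and Hspa1a (3.42 log2), and their part in the protease results was not tested. In these 3 lists the median difference over their tested genes was −0.58, −1.60 and −0.17 log2. In fibroblasts and macrophages 0 genes of these lists were called between any 2 ages (edgeR); in fibroblasts 18 ADAM and ADAMTS genes and 13 cathepsins were tested.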

How the data were processed

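The deposited tables are UMI counts per gene and barcode, which the authors made with Cell Ranger 3.0.2 on mm10, per the submitters' processing notes. The labels name 10x 3′ v2 chemistry, while the files list 6794880 barcodes per library, the number of a later kit. Counts of gene IDs sharing a symbol were added. Kept barcodes had 500 or more genes and a mitochondrial share of UMIs of 10% or less, doublets were removed with Scrublet, and cells were clustered with scanpy 1.11.5 (Leiden, 2000 variable genes, 30 components, 15 neighbours, resolution 1) without the 9 genes and the listed pathway genes. Clusters were named from 161 markers in 21 lists. The use of a median over clusters as reference and the merging of T and NK cells were settled after the clusters were seen. The 791 cells of 1 cluster stayed unnamed.

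UMIs were summed per library and class (at least 20 cells), and tested with edgeR 4.0.16 in R 4.3.3 (TMM, filterByExpr, quasi-likelihood test, Benjamini-Hochberg over all genes, threshold 0.05). The age model has age alone, since the sex labels of 2 libraries are contradicted; the class model has library as a block. DESeq2 1.42.0 was an alternative, and the others were size factors, filters, doublets, free-RNA subtraction, thinning to 1000 UMIs, clustering with the members, labelled sex and leaving out libraries. Leaving out a cluster mostly of 1 library was chosen after seeing the data. The tests were tested on simulated data with known changes. Of 100 genes changed 2-fold in the aged libraries, 1 was called in fibroblasts and 13 in macrophages. Of 100 changed 4-fold, 61 and 80 were called. Unchanged genes called were 10 in fibroblasts and 7 in macrophages. Between fibroblasts and macrophages, 133 of 200 genes changed 4-fold were called. The members and lists were chosen with earlier results of these data known. Named are all 9 members, up to 4 called genes per list and contrast by smallest p, and the 3 genes most like each member; genes of the lists named with levels only were chosen after their values were seen. Libraries share across ages only the labelled sex, which pairs no animals. Intervals are not given for CPM, whose error is the SD over libraries. The counts of 1 pathway list, activation and clearance, are not reported here.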

Additional observations from a re-analysis of the deposited data

Results flagged for a closer look

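Timp2 differed in opposite directions between ages in the 2 classes where it was highest: in fibroblasts both aged libraries lay above both young ones, by 667.0 CPM in the mean, and in macrophages both aged libraries lay below both young ones, by −235.1 CPM. Under the TMM scaling of the test the macrophage order did not hold, with Timp2 at 1139 in aged male and 1104 in young male. The difference between the classes was not tested, and neither age difference passed the test in its own class. How many of all genes moved in opposite directions in these classes was not counted.

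The 791 cells of the 1 cluster left unnamed, led by Lyz1, Ear2, Fcrls, Retnla and Ccr2, entered no comparison. Macrophage markers were their highest list, at a mean log2 level of 3.05 above the median cluster, with dendritic markers next at 0.946. The cluster stayed unnamed because no macrophage marker was among its leading genes while Ccr2, of the monocyte list, was. Mmp19 stood at 335.1 CPM in the unnamed cells, above its mean in each named class with at least 3 sums; by library it was 467 in young male, 235 in young female, 526 in the library labelled middle-aged male, 313 in aged male and 79.0 in aged female. No free-RNA limit was computed for these cells, and in macrophages Mmp2 and Timp3 at 11.4 and 10.1 CPM lay below or near theirs. The other genes above the limit that a count of 0 allows were Timp2 at 312.0 CPM, Timp1 at 13.38, Mmp2 at 10.85, Timp3 at 9.399, Mmp9 at 7.23, Mmp14 at 6.869 and Mmp3 at 4.338 CPM.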

How the results depend on the processing

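Each age and class result was recomputed under up to 19 alternatives. Of the counts of called members and the count of classes, 296 values lay within 1.5 times the main one and 28 did not. Apart from muscle between middle-aged and young, the main age counts were 0, and 0 under an alternative was taken as within 1.5 times. As the tests called few 2-fold changes in simulated data, such matches say little of how stable the results are. Without the filter on low counts, edgeR called 2 members in fibroblasts (Mmp19, Timp1) and 2 in macrophages (Mmp9, Mmp14) between aged and young, and 2 in dendritic cells (Mmp2, Timp2) and 1 in lymphatic endothelium (Mmp2). It called 1 in macrophages (Mmp9), 1 in dendritic cells (Mmp2) and 2 in lymphatic endothelium (Mmp2, Mmp3) between middle-aged and young. Between aged and middle-aged it called 1 in fibroblasts (Timp1) and 3 in macrophages (Mmp3, Mmp14, Mmp19). Mmp3 lay under its free-RNA limit in macrophages (49 UMIs beside 70.8) and in lymphatic endothelium (11 beside 23.5). Calls over all genes rose too without the filter, for aged against young from 0 to 324 of 19571 genes in fibroblasts and to 133 of 16498 in macrophages. Without the filter, calls over all genes are not given for the other classes and contrasts. Nor are they given for most other alternatives below. The member counts there have no background and are no result about the members. DESeq2 called 1 in macrophages in each contrast with middle-aged (Mmp9 against young, Mmp19 against aged) and 0 in muscle between middle-aged and young. With the replicate block (labelled sex), 1 was called between middle-aged and young in dendritic cells and 1 in muscle (Timp2 in both), and no other count moved by over 1.5 times; with the middle-aged sex labels exchanged, as Xist and Y-linked genes have them, 0 were called in dendritic cells and 2 in muscle. Between middle-aged and young, sums of at least 50 cells gave 1 in dendritic cells (Timp2), and in muscle doublets kept gave 1, free RNA subtracted 1 and thinning 0. With free RNA subtracted, 1 was called in neutrophils between aged and middle-aged and 1 in muscle between aged and young (Timp2 in both). Leaving out 1 library in turn gave 0 to 1 in dendritic cells and in lymphatic endothelium for each contrast with young, and 0 to 2 in muscle between middle-aged and young. In dendritic cells the call needed young female left out, or aged female for middle-aged against young. The class count of 6 ran from 5 to 7.

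Among single genes 7 values changed sign: Mmp19 in cycling cells against macrophages (0.10 log2 with the members used in clustering), Timp1 in cycling cells against fibroblasts (−1.37 thinned, −0.0079 with the members used in clustering, −0.010 at 1000 genes per barcode, and −0.13 to 0.18 leaving out 1 library in turn, below 0 without aged male and without aged female) and Timp2 in muscle, middle-aged against young (6.37 with free RNA subtracted). With the members used in clustering, a cluster of 1120 cells led by Oasl1 and Il10 stayed unnamed, though macrophage markers were its highest list. The macrophage class of that alternative leaves these cells out. The cause of these changes was not tested. Timp1 in fibroblasts, aged against young, ran from −2.20 to −1.27 log2 over its alternatives and Mmp9 in macrophages from 1.02 to 2.15, with adjusted p from 1.4e-05 to 1.00 and from 4.5e-04 to 1.00. Cell number limits the age tests in muscle and lymphatic endothelium, where 1 aged sum was left, and in neutrophils, where no young sum was.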
